A study of Mus musculus with 36 samples.

Results

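A set of 9 mouse protein-coding genes that mark T or B lymphocytes is described here, as a trace of lymphocytes in whole pancreas: *Cd3d*, *Cd3e*, *Cd4*, *Cd8a*, *Ms4a1*, *Cd79a*, *Cd79b*, *Pax5* and *Tbx21*. They were chosen by name, with earlier results of these data known, as 9 of 21911 protein-coding genes of the mm10 annotation, and all 9 were found. For each gene and mouse, the peaks of K4me3 and K27me3 within 3 kb of any annotated transcription start site (TSS) and over the gene body were taken. The samples used are whole pancreata of 6 mice aged 2 to 4 months, taken 22 days after tamoxifen gavage, to which both groups were exposed. There were 3 control mice (labelled Wildtype) and 3 *Ezh2*ΔSET mice (Mist1creERT/+EZH2[delta]SET), each with a peak list for both marks. Per the study's methods, controls were C57BL/6 mice or mice with the Mist1creERT allele alone, and the labels do not say which mouse was which. The study used the Mist1 driver to delete the SET domain in acinar cells, and recombination in lymphocytes was not examined here. Loss of the SET domain removes the methyltransferase activity of EZH2.

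Mature T cells carry the T cell receptor with the CD3 chains, and CD4 or CD8 as coreceptor. Mature B cells carry the B cell receptor with its signaling chains CD79A and CD79B, and CD20 on the surface. K4me3 is a histone mark of active and of CpG-rich promoters, whereas K27me3 is placed by the Polycomb complex that contains EZH2 and is linked to repression. In a bulk tissue a peak at a lymphocyte gene can come from a small share of the cells, and in such samples more cells of a type and more of the mark per cell cannot be told apart.

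The promoters of 4 of these genes are printed because they span the range seen in the data, from a promoter without a CpG dinucleotide to ones dense in them. Each is the 250 bases before the RefSeq start on GRCm38.p6, in the direction of transcription, with every CG in capitals. *Cd3d* (chr9:44981536-44981785, plus strand) has 0 CG and *Cd3e* (chr9:45009612-45009861, minus strand) has 7, against a median of 6 over 32851 RefSeq promoters, of which 92.1% hold at least 1. *Pax5* (chr4:44710695-44710944, minus strand) has 19 and *Tbx21* (chr11:97115332-97115581, minus strand) has 16. Of the 9 genes, 6 matched the RefSeq promoter table.
Cd3d: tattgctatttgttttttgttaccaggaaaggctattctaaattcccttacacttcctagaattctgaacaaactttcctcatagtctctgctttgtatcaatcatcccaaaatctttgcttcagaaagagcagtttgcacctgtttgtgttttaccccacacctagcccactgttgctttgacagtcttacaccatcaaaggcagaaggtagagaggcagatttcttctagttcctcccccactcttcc
Cd3e: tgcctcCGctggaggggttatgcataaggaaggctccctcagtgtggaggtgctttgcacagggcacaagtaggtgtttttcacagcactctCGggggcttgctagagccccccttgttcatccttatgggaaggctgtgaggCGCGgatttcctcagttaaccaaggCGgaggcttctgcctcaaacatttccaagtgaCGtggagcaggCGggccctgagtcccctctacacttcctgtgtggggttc
Pax5: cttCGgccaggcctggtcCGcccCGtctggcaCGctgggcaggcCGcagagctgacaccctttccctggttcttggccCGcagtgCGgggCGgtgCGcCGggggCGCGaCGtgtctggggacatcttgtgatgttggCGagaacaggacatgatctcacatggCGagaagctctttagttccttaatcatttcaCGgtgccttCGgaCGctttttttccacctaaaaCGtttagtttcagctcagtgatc
Tbx21: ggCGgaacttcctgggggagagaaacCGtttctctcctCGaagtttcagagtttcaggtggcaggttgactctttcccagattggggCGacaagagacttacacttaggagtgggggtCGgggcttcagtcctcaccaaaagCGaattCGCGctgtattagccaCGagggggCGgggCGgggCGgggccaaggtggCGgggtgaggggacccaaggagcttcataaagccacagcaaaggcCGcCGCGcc
K4me3 peaks overlapped the printed *Cd3d*, *Cd3e* and *Pax5* stretches in control replicate 2 alone and the *Tbx21* stretch in all 6 mice. K27me3 peaks overlapped the *Pax5* stretch in 5 mice, all but control replicate 1, and the other 3 stretches in 0.

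The tissue and the libraries were checked first. All 13 acinar genes of a fixed list had K4me3 in all 6 mice, as had 57.4% of all protein-coding genes. Of 10 genes of retina, olfactory and germ cells, 1 or 2 had it in each mouse (*Gnat1* in all 6 and *Opn1sw* in 3). Over all protein-coding genes the share per mouse was 60.4% to 62.6%. The lists hold 17400 to 25886 K4me3 peaks and 21420 to 31274 K27me3 peaks per mouse, and the smallest widths are 0.501 kb and 5.001 kb. Control replicate 2 stands apart in both marks, with the fewest peaks of each and K27me3 near a TSS at 24.6% of genes, against 10.6% to 15.6% in the other 5 mice. It was also the one mouse with K27me3 at acinar genes, 4 of 13 (*Ctrb1*, *Ptf1a*, *Rbpjl* and *Nr5a2*). Its K4me3 length at acinar genes was 53.5 kb, against 94.7 to 99.4 kb in the other 5 mice. K27me3 peaks on chromosome X numbered 17 in *Ezh2*ΔSET replicate 2 but 5637 to 7367 in the other 5 mice, and the 9 genes are autosomal.

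K4me3 at *Cd3d*, *Cd3e*, *Ms4a1*, *Cd79a* and *Cd79b* was found in a single mouse and not in a genotype. Of the 9 genes, 7 (77.8%) had K4me3 near a TSS in control replicate 2, where 60.4% of all protein-coding genes had it. Control replicates 1 and 3 had it at *Tbx21* alone (11.1%), and the *Ezh2*ΔSET mice at *Tbx21* and *Pax5* (22.2%). In these mice 62.1% to 62.6% of all protein-coding genes had it. By genotype the number of genes was 3 ± 3.46 in control and 2 ± 0 in *Ezh2*ΔSET tissue (SD, n = 3 mice each), and without replicate 2 it was 1 in control tissue. Over all protein-coding genes, 57.4% had K4me3 in all 6 mice and 34.1% in none, so that 8.45% had it in some. Of the 9 genes, 1 had it in all 6, 6 in some and 2 in none.

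**Figure D1:**
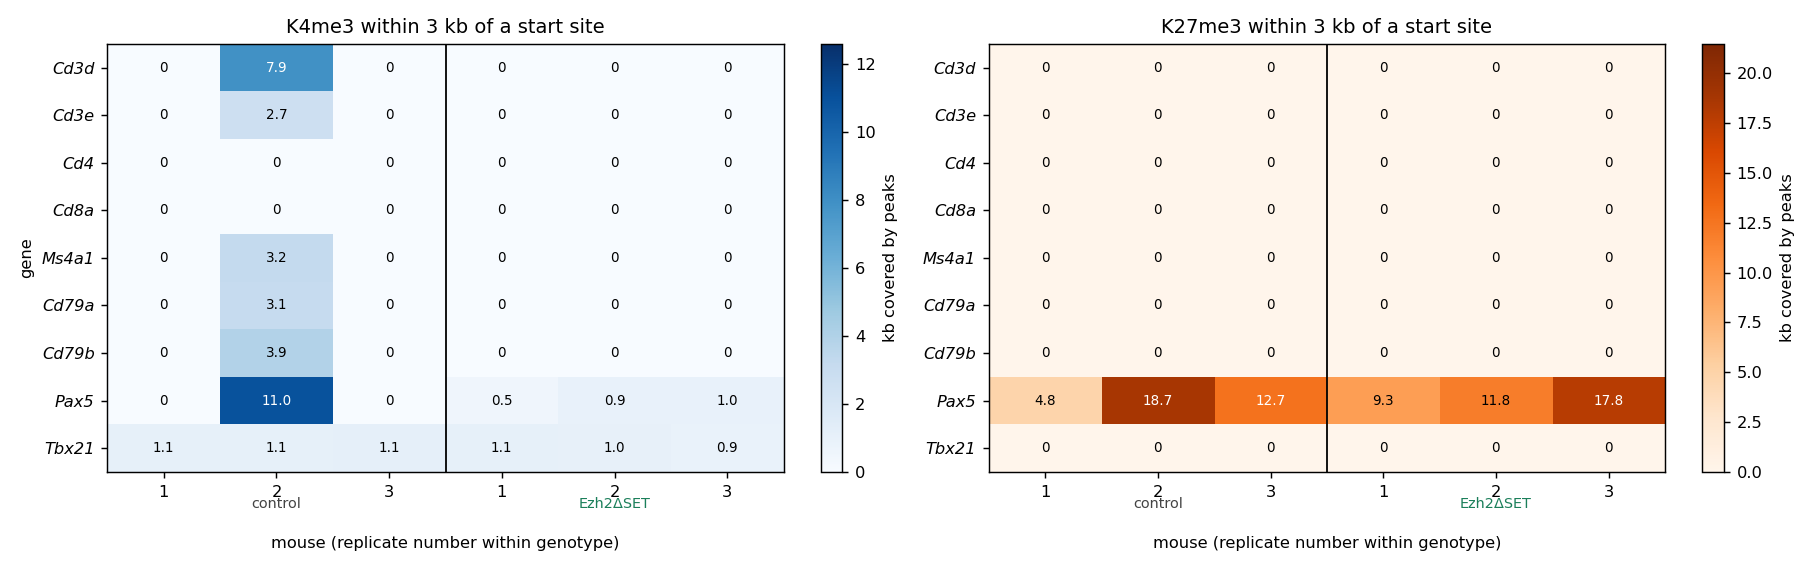
Length in kb covered by K4me3 peaks (left, blue) and K27me3 peaks (right, orange) within 3 kb of a TSS, for the 9 genes (rows) in each of 6 mice (columns, 3 per genotype). Cd3d, Cd3e, Ms4a1, Cd79a and Cd79b have K4me3 in control mouse 2 alone, and Cd4 and Cd8a have none. Tbx21 has 0.882 to 1.09 kb in every mouse, and K27me3 is present at Pax5 alone.

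*Cd3d* and *Cd3e* encode the CD3 delta and epsilon chains, through which the T cell receptor signals. *Cd3d* (ENSMUSG00000032094.8, chr9:44981786-44987339) had 7.91 kb of its 10.2 kb window under K4me3 in control replicate 2 and 0 in the other 5 mice. *Cd3e* (ENSMUSG00000032093.7, chr9:44998740-45009627) had 2.70 kb in control replicate 2 and 0 in the other 5 mice. The control and *Ezh2*ΔSET groups thus overlap at each gene, since control replicates 1 and 3 were at 0 like all 3 *Ezh2*ΔSET mice. In these 5 mice the nearest K4me3 peak lay 14.003 to 14.8 kb from the nearest TSS of *Cd3d* and 30.003 to 30.3 kb from that of *Cd3e*.

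The peak at *Cd3d* also takes in the start of *Cd3g*, the CD3 gamma chain gene, which is transcribed away from *Cd3d*, so that its length cannot be assigned to either gene alone. It was a single peak of 7.91 kb from 2.56 kb before the *Cd3d* start to 5.35 kb after it, wider than 99.6% of the K4me3 peaks of that mouse. The peak at *Cd3e* ran from 0.806 kb before its start to 1.89 kb after it and was wider than 81.2% of them. Both starts, with the CpG-free *Cd3d* stretch printed above, thus lay under wide peaks in this mouse.

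*Cd4* and *Cd8a*, the coreceptor genes of helper and cytotoxic T cells, had no K4me3 peak near a TSS in any of the 6 mice, like 34.1% of all protein-coding genes. The nearest K4me3 peak at *Cd4* (ENSMUSG00000023274.14, chr6:124864692-124888221) was a peak of 0.501 kb beyond the far end of the gene, 23.9 to 24.5 kb from its start, in 5 mice. Measured from the nearest *Cd4* TSS it was 5.97 to 6.06 kb away, and the nearest peak of control replicate 2, which lacked it, was 12.4 kb away. The nearest peak was 63.8 to 64.5 kb from a TSS of *Cd8a* (ENSMUSG00000053977.13, chr6:71373427-71379173). Control replicate 2, which had K4me3 at both CD3 genes, thus had none at either coreceptor gene. Without a read depth, an absent peak says only that none was called.

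The B cell receptor genes followed the CD3 genes. *Cd79a* (ENSMUSG00000003379.7, chr7:24897381-24902197) had 3.11 kb under K4me3 in control replicate 2 and 0 in the other 5 mice. *Cd79b* (ENSMUSG00000040592.11, chr11:106311341-106314762) had 3.90 kb in the same mouse and 0 in the other 5. *Ms4a1* (ENSMUSG00000024673.9, chr19:11249675-11266241), which encodes CD20, had 3.21 kb there and again 0 elsewhere. With the CD3 genes, 5 of the 9 genes were marked in control replicate 2 and in no other mouse, as were 1.35% of all protein-coding genes (295 of 21911). Each of the other 5 mice had 27 to 63 genes that were marked in that mouse alone.

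K4me3 at *Cd79a* ran through the gene into its neighbor. In control replicate 2 a single peak of 10.4 kb began 0.108 kb before the *Cd79a* start, covered the whole gene and ended 10.325 kb after it, and it was wider than 99.9% of the K4me3 peaks of that mouse. The other 5 mice had a peak of 2.72 to 2.92 kb there, which began 5.17 to 5.34 kb after the *Cd79a* start, at the starts of *Arhgef1*, which encodes a guanine nucleotide exchange factor. *Cd79a* itself thus had no peak of its own in those 5 mice, while its neighbor was marked in all 6. When only peaks nearer to a TSS of the gene than to that of another were kept, *Cd79a* lost its call in control replicate 2. The peak at *Cd79b* in control replicate 2 was 5.14 kb wide, wider than 97.8% of its library, and that at *Ms4a1* 3.99 kb, wider than 94.4%.

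**Figure D2:**
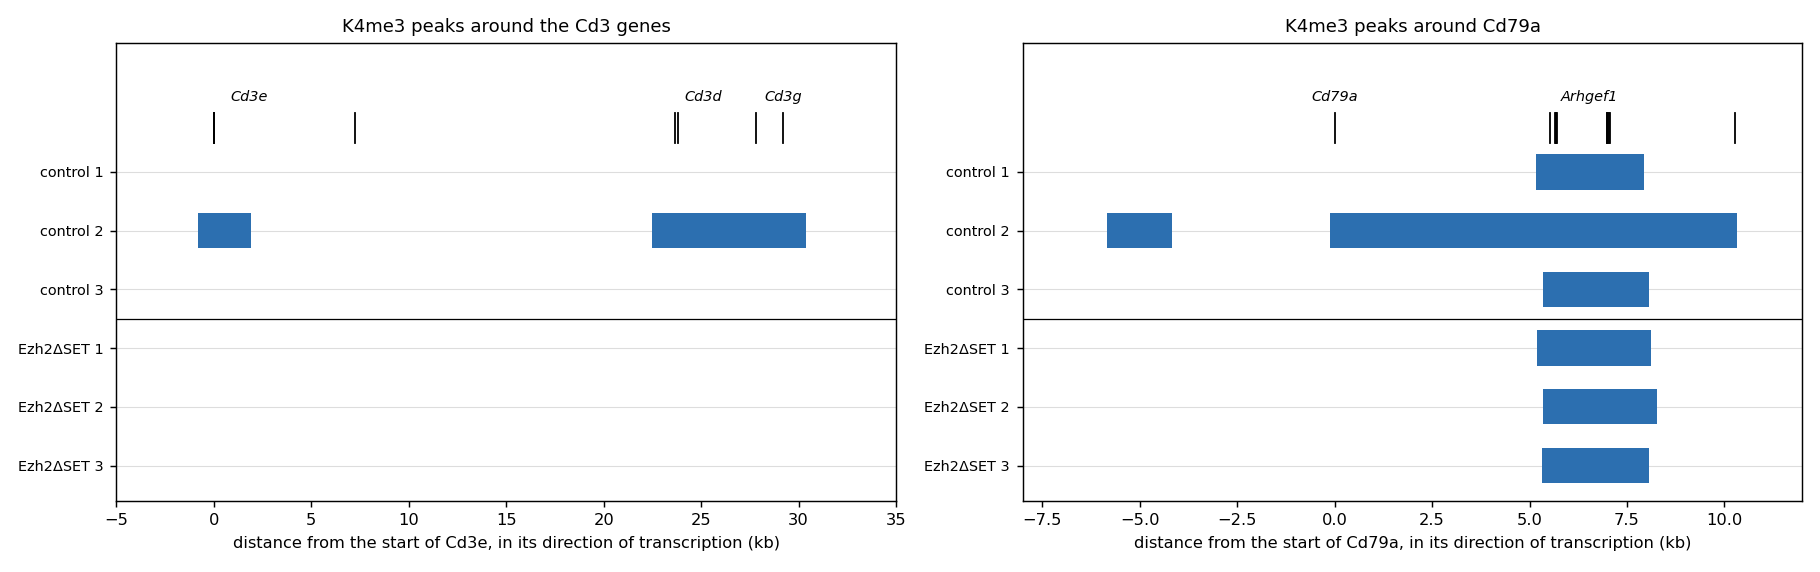
K4me3 peaks (bars) of 6 mice (rows) around the Cd3 genes (left) and Cd79a (right), against the distance in kb from the start of Cd3e or Cd79a, with annotated starts as ticks at the top. Peaks cover the starts of Cd3e, Cd3d and Cd3g and all of Cd79a in control mouse 2 alone, while a peak at Arhgef1 is present in every mouse.

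*Pax5*, the transcription factor that commits cells to the B lineage, carried K4me3 in more mice than the receptor genes, and its place along the gene differed between mice. The gene (ENSMUSG00000014030.15, chr4:44524757-44710487, minus strand) has 7 annotated starts, which fall into 4 windows of 24.7 kb in all. K4me3 covered 0, 10.96 and 0 kb of them in control replicates 1 to 3 and 0.501, 0.900 and 0.968 kb in the *Ezh2*ΔSET mice. The highest value was that of control replicate 2, and all 3 *Ezh2*ΔSET mice lay above the other 2 controls, which had none. With equal numbers of the widest peaks, *Ezh2*ΔSET replicate 3 alone of these 3 kept its K4me3 at *Pax5*. With the gene start alone or a minimum width of 1 kb none of them did. A peak in all 3 *Ezh2*ΔSET mice with none in control replicates 1 and 3 was found at 0.137% of all protein-coding genes (30 of 21911), a pattern set after the values were seen.

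The window around the first starts of *Pax5* held K4me3 in control replicate 2 alone, 5.13 kb. The window around the starts at 6.48 and 7.07 kb held it in 4 mice, 5.325 kb in control replicate 2 and the whole of the *Ezh2*ΔSET values. The start of a provisional transcript on the other strand, *5730488B01Rik*, lies at 7.69 kb, and the peaks carry no strand. Further along, 5 of 6 mice, all but control replicate 2, had a K4me3 peak of 0.987 to 1.05 kb at 76.0 to 77.1 kb from the start (chr4:44633383-44634479), where the annotation has no start. A peak of 0.501 to 0.626 kb lay at 45.7 to 46.4 kb in *Ezh2*ΔSET replicates 2 and 3, across the start of the antisense gene *Gm12462* at 46.1 kb.

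*Tbx21*, which encodes T-bet, a factor of type 1 helper T cells and of natural killer cells, was the only one of the 9 genes with K4me3 in all 6 mice. The length within 3 kb of its TSS (ENSMUSG00000001444.2, chr11:97098071-97115331) was 1.05, 1.08 and 1.09 kb in control and 1.08, 0.989 and 0.882 kb in *Ezh2*ΔSET mice. Each mouse had 1 peak, which began 0.213 to 0.432 kb before the TSS and ended 0.559 to 0.786 kb after it. Unlike at the genes marked in control replicate 2 alone, this mouse lay between the other controls. The peak was wider than 26.7% to 38.9% of the K4me3 peaks of its mouse. With equal numbers of the widest peaks it was lost in *Ezh2*ΔSET replicate 3, and with a minimum width of 1 kb in *Ezh2*ΔSET replicates 2 and 3.

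K27me3 near a TSS was found at *Pax5* in all 6 mice and at none of the other 8 genes in any mouse. Over all protein-coding genes, 3.61% had K27me3 in all 6 mice and 66.7% in none. At *Cd3d*, *Cd3e*, *Cd4*, *Cd8a*, *Ms4a1*, *Cd79a* and *Cd79b* no K27me3 peak reached the gene body either. The nearest K27me3 peak was 49.6 kb from the nearest TSS of *Cd3d* and 22.9 kb from that of *Ms4a1* in control replicate 2, against 251 to 1102 kb and 70.2 to 96.9 kb in the other 5 mice. In a window from 100 kb upstream, 5 of the 9 genes had K27me3 in control replicate 2 (*Cd3e*, *Cd4*, *Ms4a1*, *Cd79a* and *Pax5*), where 54.8% of all protein-coding genes had it. The other 5 mice had it at *Pax5*, and *Ezh2*ΔSET replicates 1 and 3 also at *Cd79a*, against 28.2% to 35.8% of all genes. *Tbx21* had K27me3 over the end of its gene body in control replicate 2, 5.42 kb, and none within 3 kb of its TSS. Within 3 kb of a TSS and over the gene body, the genes other than *Pax5* and *Tbx21* thus lay outside K27me3 peaks also in the mice where they had no K4me3.

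K27me3 covered 4.82, 18.7 and 12.7 kb of the *Pax5* windows in control mice and 9.33, 11.8 and 17.8 kb in *Ezh2*ΔSET mice. Both the lowest and the highest value were those of controls, so the groups overlap. The first 3 windows are 6.08, 6.59 and 6.001 kb long and were fully covered in the highest mice, so the length could rise no further there, and the window at 64.764 kb held no K27me3 in any mouse. Over the gene body of 186 kb it covered 13.6, 35.4 and 21.1 kb in control and 25.2, 22.1 and 44.1 kb in *Ezh2*ΔSET mice, again with overlap.

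In each mouse with both marks within 3 kb of a *Pax5* start, they shared some bases, but the shared part of the K4me3 length differed. In control replicate 2, all 10.96 kb under K4me3 were also under K27me3, as was 100% of the K4me3 length in *Ezh2*ΔSET replicate 3. In *Ezh2*ΔSET replicates 1 and 2 the small K4me3 peak reached into a gap between K27me3 peaks, with 61.9% and 3.89% of it under both. From whole tissue these lists cannot tell whether both marks were on the same chromosomes or in different cells.

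**Figure D3:**
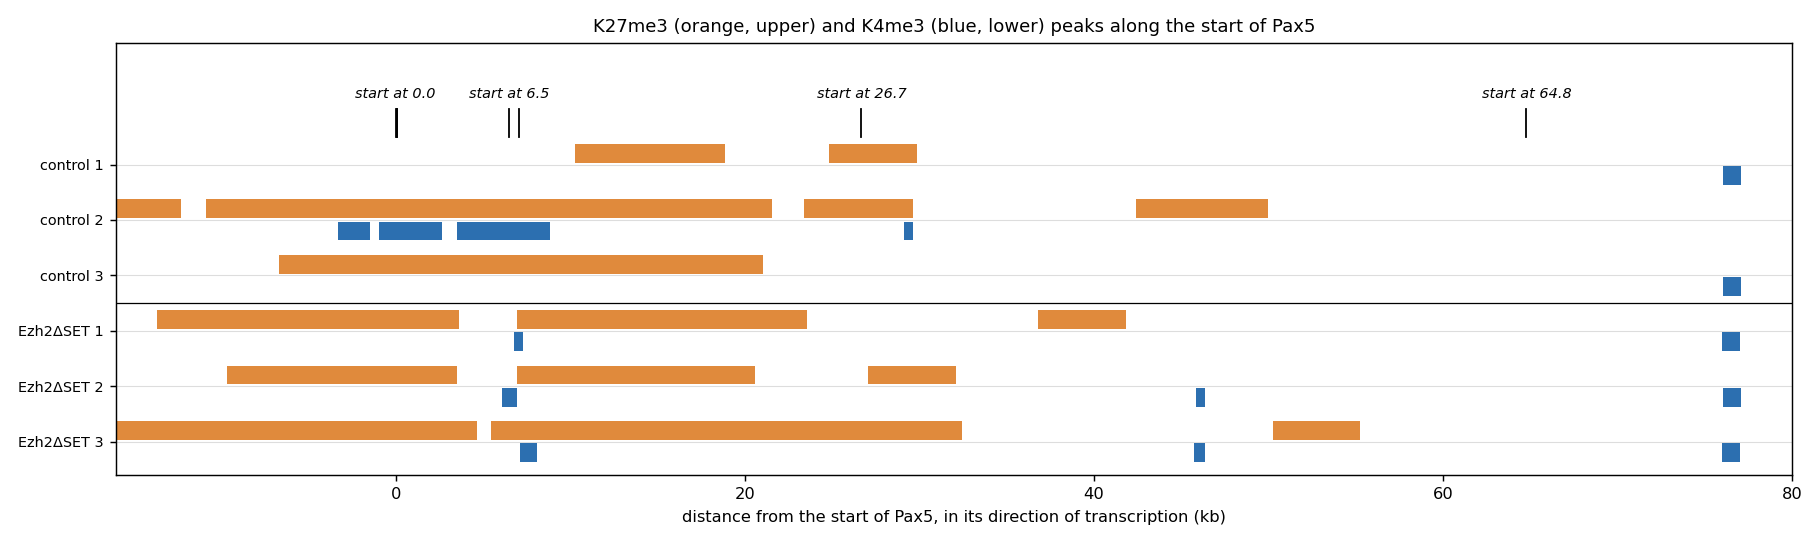
K27me3 (orange, upper bar) and K4me3 (blue, lower bar) peaks of 6 mice along the first 80 kb of Pax5 and 16 kb before it, against distance in kb from its start, with annotated starts as ticks. K27me3 lies over at least 1 start window in every mouse, wide K4me3 peaks are present in control mouse 2 alone, and a K4me3 peak at 76.0 to 77.1 kb is present in the other 5 mice.

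No gene of the annotation, the 9 included, passed an adjusted p of 0.05 between *Ezh2*ΔSET and control mice (exact permutation test of covered length, two-sided, Benjamini-Hochberg over all genes tested). With 3 mice against 3 the smallest possible p is 0.1, so the comparison could not reach 0.05, and at an unadjusted p under 0.05 it gave 0 of 14437 genes for K4me3 and 0 of 7306 for K27me3. The test asks for a peak in at least 1 mouse, which 7 of the 9 genes had for K4me3 and *Pax5* alone for K27me3.

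The smallest p among these genes was that of K4me3 at *Tbx21*. The peak covered 0.984 kb ± 0.0991 in *Ezh2*ΔSET and 1.08 kb ± 0.0222 in control mice (SD, n = 3 each; exact permutation test, p = 0.2, adjusted p = 0.943). The difference of -0.092 kb fails the correction, and the groups overlap, as *Ezh2*ΔSET replicate 1 lay above control replicate 1. K27me3 at *Pax5* covered 13.0 kb ± 4.38 in *Ezh2*ΔSET and 12.1 kb ± 6.95 in control mice (SD, n = 3 each; exact permutation test, p = 1, adjusted p = 1), within the spread of the mice. Over the *Pax5* gene body the means were 30.5 kb ± 11.9 and 23.3 kb ± 11.1 (SD, n = 3 each; exact permutation test, p = 0.5, adjusted p = 1).

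At *Cd3d*, *Cd3e*, *Ms4a1*, *Cd79a*, *Cd79b* and *Pax5* the control mean of K4me3 rests on 1 mouse. At *Cd3d* it was 2.64 kb ± 4.57, against 0 in *Ezh2*ΔSET mice (SD, n = 3 each; exact permutation test, p = 1, adjusted p = 1), and *Cd3e*, *Ms4a1*, *Cd79a* and *Cd79b* gave the same p. At *Pax5* it was 3.65 kb ± 6.33, against 0.790 kb ± 0.252 in *Ezh2*ΔSET mice (SD, n = 3 each; exact permutation test, p = 1, adjusted p = 1). Without control replicate 2 the *Pax5* difference turned from -2.86 to 0.790 kb (exact permutation test, p = 0.1, the smallest that 3 against 2 mice can give). Summed over the 9 genes, K4me3 covered 32.9 kb in control replicate 2, 1.05 and 1.09 kb in the other controls and 1.58, 1.89 and 1.85 kb in *Ezh2*ΔSET mice. The control mean was 11.7 kb ± 18.4 with replicate 2 (SD, n = 3) and 1.07 kb without it.

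Wider lists of genes of the same cells, also chosen with earlier results of these data known, showed the same mouse. Of 20 other T receptor and signaling genes, 17 had K4me3 in control replicate 2 and 3 in each of the other 5 mice. These 3, marked in all 6 mice and so unlike the CD3 genes, were *Cd247*, which encodes the zeta chain of the T cell receptor complex, *Lck*, a kinase of T cell receptor signaling, and *Cd27*, a costimulatory receptor gene. *Cd8b1*, which encodes the other chain of CD8, *Ctla4* and *Sh2d1a* had no K4me3 peak in any mouse. Of 20 other B receptor and signaling genes, all 20 had it in control replicate 2, against 7 to 10 in the other 5. Over all protein-coding genes, 60.4% had K4me3 in control replicate 2 and 62.1% to 62.6% in the other 5. Of these lists, 14 T genes and 10 B genes were marked in control replicate 2 and in no other mouse, where the share over all protein-coding genes was 1.35%. None of the genes of these lists passed the test between genotypes in either direction, which none could at this number of mice.

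Like *Pax5*, 2 of 20 genes of the B list had K4me3 in control replicate 2 and all 3 *Ezh2*ΔSET mice but not in the other controls, where 0.137% of all protein-coding genes had it in all 3 *Ezh2*ΔSET mice and in neither of those controls. The pattern was set after the values were seen. They were *Blnk*, an adaptor of B cell receptor signaling, and *Cd72*, a B cell surface protein.

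*Ezh2*ΔSET replicate 2 shared part of the pattern of control replicate 2. Of 10 genes used by leukocytes in general, 10 had K4me3 in control replicate 2, 9 in *Ezh2*ΔSET replicate 2, and 3 or 4 in the other 4 mice. *Coro1a*, *Vav1* and *Lcp1* were marked in all 6 mice, and *Arhgdib* also in *Ezh2*ΔSET replicate 3. Over all protein-coding genes the share with K4me3 was 60.4% to 62.6% per mouse. Their summed K4me3 length was 43.9 kb and 12.95 kb in these mice and 6.87 to 7.27 kb in the other 4. *Ptprc*, which encodes the leukocyte surface phosphatase CD45, and *Laptm5*, *Cd53*, *Rac2* and *Itgb2* were marked in these 2 mice alone, as were 0.283% of all protein-coding genes (62 of 21911). At the 9 lymphocyte identity genes *Ezh2*ΔSET replicate 2 did not differ in this way, with K4me3 at *Pax5* and *Tbx21* like the other *Ezh2*ΔSET mice.

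Of 10 macrophage and myeloid genes, 4 had K4me3 in control replicate 2 and 3 in each of the other 5 mice, against 60.4% to 62.6% of all protein-coding genes per mouse. *Spi1*, which encodes the transcription factor PU.1, and *Mpeg1* were marked in control replicate 2 alone, 2 of 10 against 1.35% of all genes. *Cd68* and *Cd14* were marked in all 6 mice, and *Cx3cr1*, a chemokine receptor gene, in the other 5 mice and not in control replicate 2. *Csf1r*, *Adgre1*, *Lyz2*, *Itgam* and *Fcgr1*, among them the receptor and surface proteins that define macrophages, had no K4me3 peak in any mouse. Of 20 transcription factors of lymphoid cells, 17 to 19 had K4me3 in each mouse and 16 in all 6, where 57.4% of all protein-coding genes had it in all 6.

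Fewer duct and islet genes had K4me3 in control replicate 2 than in the other 5 mice. Of 6 islet genes, 1 (*Pdx1*) had it there and 3 in each of the others. Over all protein-coding genes the shares were 60.4% there and 62.1% to 62.6% in the others. The islet hormone genes *Ins1*, *Ins2* and *Gcg* had no K4me3 peak in any mouse. The genes without a peak in control replicate 2 alone were the duct genes *Cftr* and *Spp1* and the islet genes *Nkx6-1* and *Neurod1*, a pattern found at 2.77% of all protein-coding genes (606 of 21911). Of 6 endothelial and stromal genes, 3 had K4me3 in control replicate 2 and 2 or 3 in the others, with *Kdr* and *Col1a1* marked in all 6 mice, *Pdgfrb* in control replicates 1 and 3 and *Ezh2*ΔSET replicate 3, and *Pecam1*, which encodes CD31, in control replicate 2 alone. The part of these differences, and of the smaller number of peaks, in the K4me3 at lymphocyte genes was not tested.

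**Figure D4:**
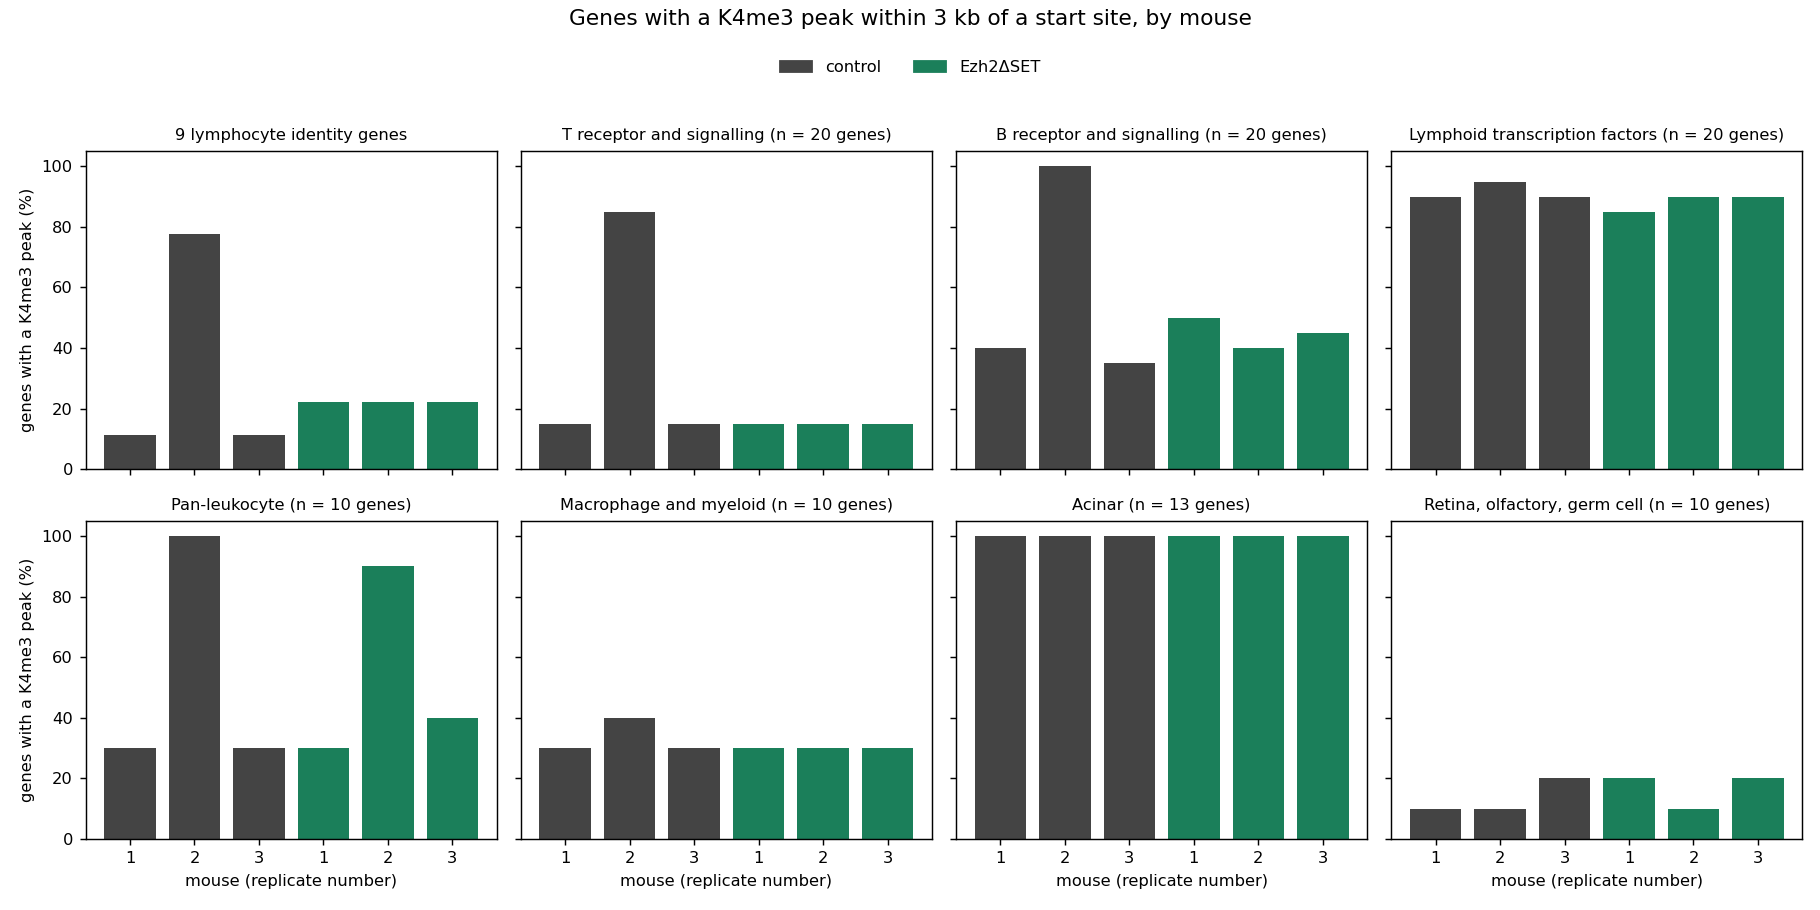
Percent of genes of each list with a K4me3 peak within 3 kb of a TSS in each of 6 mice (bars, colored by genotype, 3 mice each). For the T and B cell lists control mouse 2 reaches 85% and 100%, whereas acinar genes are at 100% in every mouse.

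By the pattern of K4me3 over the 6 mice, *Cd3d*, *Cd3e*, *Ms4a1*, *Cd79a* and *Cd79b* could not be told apart from each other. Among 70 genes of the T, B, lymphoid factor and leukocyte lists, 27 were in the same state as these in 6 of 6 mice, and with a peak in a single mouse the lengths cannot order them further. The first of the 27 by name were *Bank1* and *Bcl11b*. For *Pax5*, 2 of the 70 were in the same state in 6 of 6 mice, *Blnk* and *Cd72*.

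In the 1 kb around the gene start, *Tbx21* had 80 CpG and an observed over expected ratio of 0.763, and *Pax5* 36 and 0.663. K4me3 reached the window of the *Pax5* gene start in 1 mouse, as at *Cd3d*, *Cd3e*, *Ms4a1*, *Cd79a* and *Cd79b*. Its calls in the *Ezh2*ΔSET mice lie at other starts. The other 7 had 8 to 22 CpG and ratios of 0.137 for *Ms4a1* to 0.358 for *Cd8a*, below the median ratio of 0.553 over all protein-coding genes. Counting a start as CpG-rich at a ratio of at least 0.6 and at least 50% GC, *Tbx21* was the only one of the 9, since *Pax5* had 47.1% GC. K4me3 was present in all 6 mice at 89.5% of 9725 CpG-rich and 31.8% of 12173 CpG-poor genes. Of the 295 genes with K4me3 in control replicate 2 alone, 12.2% were CpG-rich, against 44.4% of all protein-coding genes. The acinar genes, with K4me3 in all 6 mice, had a median ratio of 0.263, which lies within the range of the other 7 genes.

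**Figure D5:**
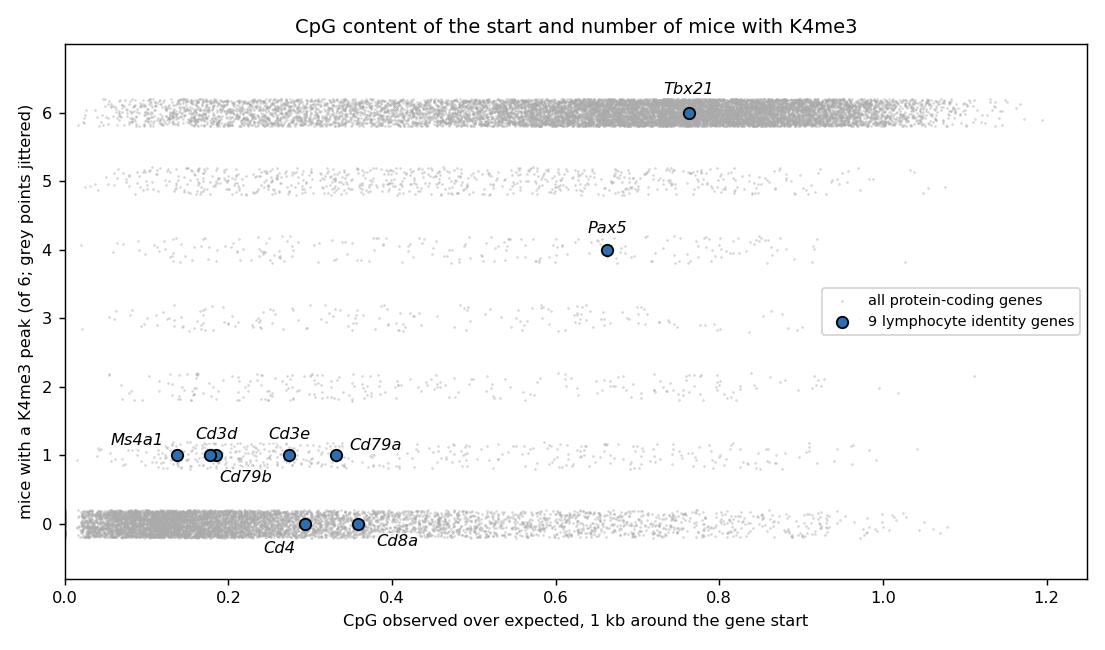
Number of the 6 mice with a K4me3 peak within 3 kb of a TSS (vertical axis) against the CpG observed over expected ratio in the 1 kb around the gene start (horizontal axis). The 9 genes are blue and all protein-coding genes grey and jittered; Tbx21 has a ratio of 0.763 and 6 mice, and 7 genes have ratios of 0.137 to 0.358 and 0 or 1 mouse. The 4 mice of Pax5 count peaks at any of its starts, and 1 of them has K4me3 in the window of the gene start whose ratio is plotted.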

How the data were processed

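K4me3 and K27me3 ChIP-Seq peaks of 6 mice (12 lists) were analyzed. Samples of further genotypes were not used here. Per the labels and methods, the authors checked reads with FastQC, aligned them to mm10 with bowtie2 and ran HOMER findPeaks per mouse in its histone mode, with input as background (versions not given in the sources used here). The deposited lists give positions, and the score column deposited by the authors is 1 for every peak. Read depth is unknown, and it would change which peaks are called. Input samples were not analysed here.

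Peaks were set against GENCODE vM21 on the same build. A gene counted as marked in a mouse if at least 1 bp of the 3 kb on either side of any TSS lay under a peak, and covered length was summed over these merged windows. Tests on lengths were exact permutation tests over mice, two-sided, with no pseudocount, adjusted over all genes with a peak in at least 1 mouse. The code was tested on simulated data. The 9 genes and the lists were chosen with earlier results of these data known. All 9 are named, with genes whose TSS lies in their windows, list genes in counts of at most 5 and the 2 closest genes by K4me3 state (ties by correlation of length, then by name). *Arhgef1* was named after its peaks were seen. Alternatives were a 1 kb window, the gene start alone, a window from 100 kb upstream for K27me3, an overlap of 500 bp, a minimum width, equal numbers of the widest peaks, only peaks nearer to a TSS of the gene than to that of another, genes with a peak in at least 3 mice, the replicate block and each mouse left out. Tables and tests were made with pandas 2.3.3 and numpy 2.4.6 and plots with matplotlib 3.10.9, in Python 3.11.15.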

Additional observations from a re-analysis of the deposited data

How the results depend on the processing

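The lists give no depth, so every absent peak is limited by an unknown detection limit, and the cause of a change between settings was not tested. Under the alternatives that keep every mouse, 20 per-mouse values moved beyond the spread of mice. In control mice replicate 2 sets that spread, so a K4me3 value that stayed within it says little about its stability. The counts of genes past an adjusted p of 0.05 were 0 throughout, which the smallest possible p of 0.1 or higher fixes in advance, and say nothing about stability.

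With the gene start alone, *Ezh2*ΔSET mice had 1 of the 9 genes with K4me3 and 0.984 kb. K27me3 was then called at 0.833 genes over all mice and at 0.667 in control, and its length was 5.001 kb over all mice, 4.00 kb in control and 6.001 kb in *Ezh2*ΔSET mice. With equal numbers of the widest peaks, the K4me3 values of *Ezh2*ΔSET mice were 1 gene, 1.01 kb and 0.356% of the gene body, and K27me3 was called at 0.833 genes over all mice and 0.667 in control. The gene that kept K4me3 was *Tbx21* in *Ezh2*ΔSET replicates 1 and 2 and *Pax5* in *Ezh2*ΔSET replicate 3. With a minimum K4me3 width of 1 kb, which removes the K4me3 peaks at the *Pax5* starts of all 3 *Ezh2*ΔSET mice and the *Tbx21* peaks of 2 of them, *Ezh2*ΔSET mice had 0.333 genes and 0.36 kb. A minimum of 5 kb removed no K27me3 peak. With only peaks nearer to a TSS of the gene than to that of another, control mice had K4me3 at 2.67 genes over 10.6 kb. The call lost there was that of *Cd79a* in control replicate 2. With a 1 kb window, K27me3 covered 4.50 kb over all mice, 4.45 kb in control and 4.55 kb in *Ezh2*ΔSET mice. A smaller window can only keep or lower a count or length. The falls here and with the gene start alone thus say little about stability. From 100 kb upstream, K27me3 was called at 2 genes over all mice, 2.33 in control and 1.67 in *Ezh2*ΔSET mice. Control replicate 2 had 5 and the other controls 1 each, so that without it the control mean is 1, while the groups still overlap, as *Ezh2*ΔSET replicate 2 also had 1.

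With each mouse left out in turn, the 9 genes had K4me3 at 1 (without control replicate 2) to 4 in control mice, over 1.07 to 17.0 kb and 0.488% to 19.7% of the gene body, without the same mouse at the low end. K27me3 in control mice ran from 8.75 to 15.7 kb. The difference of *Pax5* K4me3 ran from -4.69 to 0.790 kb (without control replicate 2). That of *Pax5* K27me3 ran from -2.67 kb (without control replicate 1) to 4.26 kb and was -1.47 kb without *Ezh2*ΔSET replicate 3. That of *Tbx21* K4me3 ran from -0.14 to -0.0412 kb.

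The labels do not say that replicate numbers pair the mice, and they were not treated as pairs. Deviations of same-numbered mice correlated from 0.0636 to 0.237 for K4me3 and from -0.0831 to 0.108 for K27me3 over 3 pairs, so not every pair was over 0.1. For K4me3 the median was 0.211 for the same number and -0.127 for different numbers, and the highest value was that of control 2 with *Ezh2*ΔSET 2. Control 3 correlated more with *Ezh2*ΔSET 1 (0.158) than with its own number (0.0636). With the replicate block, *Pax5* K27me3 still differed by 0.951 kb (exact permutation test, p = 1) and *Tbx21* K4me3 by -0.092 kb (exact permutation test, p = 0.5), where the smallest possible p is 0.25.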
